A study of Mus musculus with 19 samples.

Results

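Neurons that make orexin were compared by how much of their messenger RNA came from Hcrt, the gene of the orexin (hypocretin) precursor. The cells were wells labelled LHA, the lateral hypothalamic area, with at least 1000 genes detected, at least 1% of their mouse gene counts in Hcrt and more Hcrt than Pmch, the gene of melanin-concentrating hormone. Of 1534 LHA wells with at least 1000 genes, 1066 cells (69.5%) met this rule on 19 plates. On each plate these cells were ranked by their Hcrt share and split into 3 parts, which gave 347 high-Hcrt cells, 372 middle cells and 347 low-Hcrt cells. A plate held 26 to 80 such cells (median 60), and 8 to 26 in its high-Hcrt part and as many in its low-Hcrt part. Hcrt chose the groups, so its own values are a description. Every other gene was scaled to totals from which Hcrt was removed.

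The 7 mice were males of 6 to 8 weeks with the genotype Agrp-IRES-Cre x Ai9 and no named treatment. In this cross Cre is driven from the Agrp locus and the Ai9 reporter gives red fluorescence to AGRP neurons. The cells studied here were the non-fluorescent ones, picked by hand from slices in which fluorescent AGRP axons marked the borders of the area. High-Hcrt and low-Hcrt cells therefore shared genotype, age, plate and handling, and were told apart by rank alone. The Smart-SCRB chemistry gives each well of a plate its own barcode, and read 1 also carries a unique molecular identifier (UMI). Which mouse filled which plate is not labelled, so the 19 plates are not known to be independent, and tests across them may give p-values that are too small.

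Orexin neurons are a small population of the lateral hypothalamus that project through most of the brain and keep animals awake, and their loss causes narcolepsy. Like other neurons that release peptides, they translate a precursor into the endoplasmic reticulum (ER), pack it with granins into dense-core granules and cut it there with prohormone convertases. Many of these neurons also hold dynorphin, from the gene Pdyn, and release glutamate through the vesicular transporter Slc17a6. Hcrt itself lies at chr11:100761069-100762931 on the minus strand of the build GRCm38.

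The Hcrt share of the 1066 cells had a median of 13.5% of mouse gene counts, a lowest value of 1.053% and a highest of 45.8%. The plate median of high-Hcrt cells ran from 12.1% to 19.1% (median 16.3%). In low-Hcrt cells it ran from 6.94% to 12.9% (median 10.99%), and in middle cells from 9.795% to 16.5% (median 13.7%). Within a plate the high-Hcrt median was 1.4 to 1.74 times the low-Hcrt median (median 1.487). By plate medians, low-Hcrt cells were thus still rich in Hcrt. Single cells reached lower, and 20 of all cells were under 5%, each of them among the low-Hcrt cells. The groups are relative to the plate: the lowest share of a high-Hcrt cell was 10.9% on one plate and 17.3% on another. The upper limit of the low-Hcrt cells ran from 8.35% to 14.7%. Neighbouring groups met closely, with a median gap of 0.06 percentage points between the last high-Hcrt and the first middle cell, and 0.15 points between middle and low-Hcrt cells. The highest share just under the 1% rule was 0.971%.

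**Figure D1:**
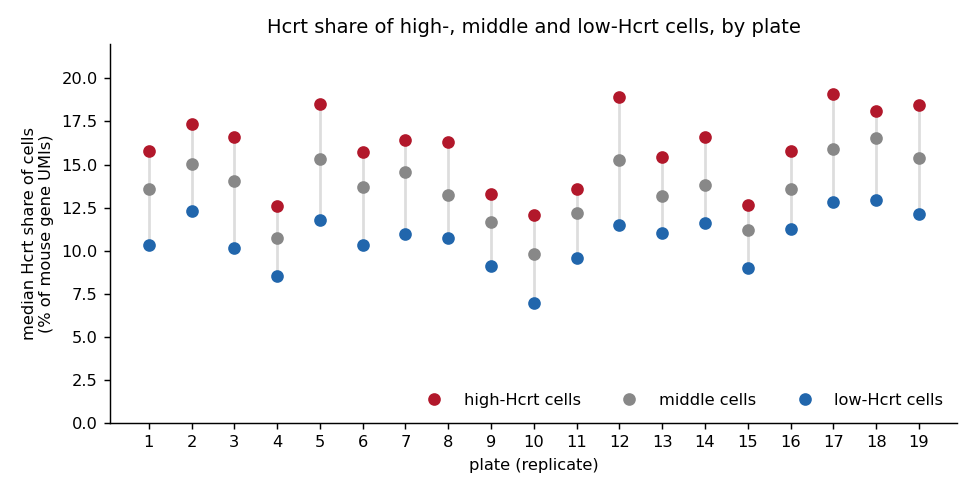
Median Hcrt share of mouse gene UMIs (y axis, percent) in high-Hcrt, middle and low-Hcrt cells of each of 19 plates (x axis); a grey line joins the values of a plate. The order is fixed by the ranking, and the whole set shifts between plates, with high-Hcrt medians from 12.1% to 19.1%.

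In counts, a high-Hcrt cell had a median of 7609 Hcrt UMIs and a low-Hcrt cell 3909. Wells without a cell (64 with spike-in RNA and 40 empty) had a median of 15.5 Hcrt UMIs. The highest had 287 with spike-in RNA and 160 among the empty wells. The lowest low-Hcrt cell had 38, so at this end low-Hcrt cells overlapped with wells without a cell. UMIs other than Hcrt had a plate median of 39731 (16693 to 91009) in high-Hcrt and 38475 (16139 to 155234) in low-Hcrt cells, so the groups overlapped in depth. Against the ERCC spike-in RNA added to the wells, high-Hcrt cells held 5.753 ± 1.437 Hcrt UMIs per ERCC count (mean ± SD over 19 plates) and low-Hcrt cells 3.42 ± 1.038. UMIs other than Hcrt per ERCC count were 29.4 ± 5.385 and 28.4 ± 5.628. These measures enter the ranking or share its terms and were not tested.

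The gated cells carried the marks of Hcrt neurons and of few other cells. By 8 pan-neuronal genes, 1041 of 1066 cells were neurons, and 25 were not. The 10 oligodendrocyte markers summed to 32.7 to 114.6 CPM (UMIs per gene rescaled so that every library, leaving out Hcrt, has an equal sum; median 52.3) in high-Hcrt cells and 41.7 to 6490 CPM (median 77.4) in low-Hcrt cells. That sum was lower in the high-Hcrt cells of 16 of 19 plates (sign-flip permutation test over plates, two-sided, p = 0.00555, adjusted p = 0.0155 over 14 measures). The 8 astrocyte markers gave 81.7 to 176 CPM (median 115.3) against 106.1 to 215 CPM (median 159), lower in 14 of 19 plates (permutation adjusted p = 0.00401). Of the oligodendrocyte markers, Opalin was at 0 in all high-Hcrt cells. The 10 genes of GABA neurons had the widest gap, 5.033 to 85.5 CPM (median 27.6) against 43.1 to 265 CPM (median 97.2), lower in 17 of 19 plates (permutation adjusted p = 0.00028). Microglial, endothelial, mural, ependymal and oligodendrocyte precursor lists did not pass (permutation adjusted p from 0.123 to 0.902), and 2 microglial markers and 1 ependymal marker were at 0 in low-Hcrt cells. The 6 genes of Pmch neurons summed to medians of 268 and 243 CPM, with 1 low-Hcrt group at 16284 CPM (permutation adjusted p = 0.274).

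Depth and quality were also set side by side. At an equal depth of 18000 UMIs other than Hcrt, which 322 high-Hcrt and 298 low-Hcrt cells reached, plate medians were 4040 ± 137 genes in high-Hcrt and 4142 ± 120 genes in low-Hcrt cells (SD, n = 19). High-Hcrt cells had fewer genes on 18 of 19 plates (permutation p = 4e-05, adjusted p = 0.00028). Without thinning the medians were 5146 ± 483 and 5221 ± 660 genes. Mitochondrial RNA made up 2.79% ± 0.327 and 2.94% ± 0.512 of UMIs other than Hcrt (permutation p = 0.138). The part of these measures in the gene results was not tested beyond the alternatives given with them.

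Between high-Hcrt and low-Hcrt cells, 184 of 7362 genes tested (2.50%) had an adjusted p under 0.05 in edgeR's quasi-likelihood test on counts summed per plate and group, with the plate as block. Of these, 77 (1.05%) were higher in high-Hcrt cells and the others (1.45%) lower. Most differences were modest. The median absolute log2 fold change was 0.26 in the genes that rose and 0.40 in those that fell, and 1 and 11 genes passed a 2-fold change. The genes that rose were abundant (median 505 CPM) and those that fell less so (median 120 CPM), beside 46.7 CPM over all genes tested. The median over all genes tested was a log2 value of -0.05, so a gene at 0 stood slightly above the typical gene. With TMM factors, which centre the genes, 206 genes were called (2.80%), of which 138 rose (1.87%) and 68 fell (0.924%). With each cell thinned to 18000 UMIs other than Hcrt, 139 of 4771 genes were called (2.91%), 62 higher (1.30%) and 77 lower (1.61%). With cells ranked instead by Hcrt UMIs over ERCC counts, 495 genes rose and 636 fell.

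**Figure D2:**
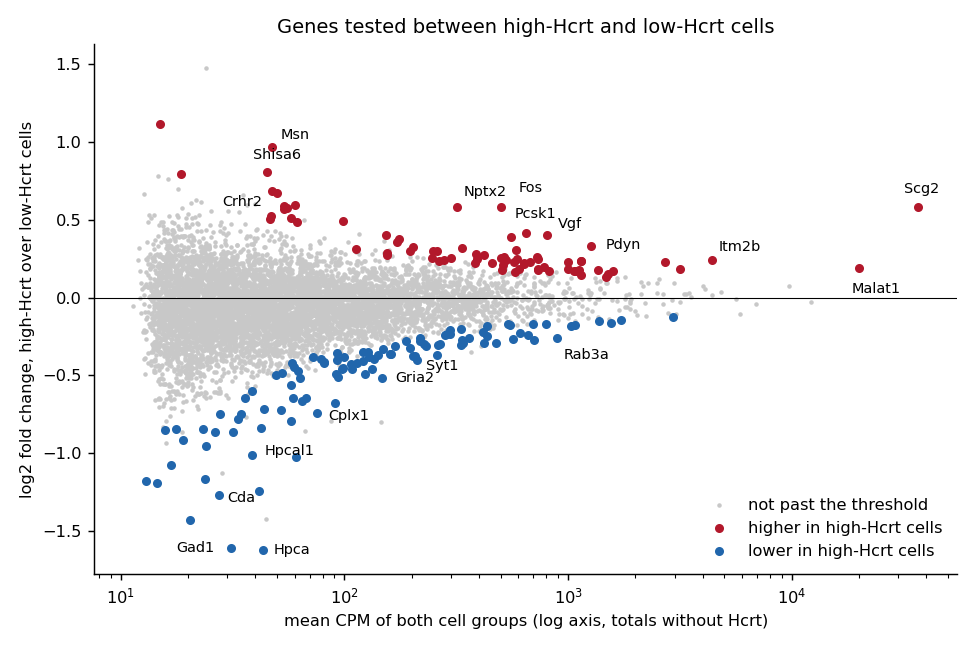
Log2 fold change of high-Hcrt over low-Hcrt cells (y axis) against the mean CPM of both groups (x axis, log scale) for 7362 genes; red and blue points had an adjusted p under 0.05. Scg2 stands apart as both very abundant and higher, while genes that fell, such as Hpca and Gad1, lie at low levels.

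Granins and granule proteins were among the genes that rose. Of 18 genes listed, 14 were tested, 6 rose and 1 fell, beside 1.05% and 1.45% of all genes, with a median log2 fold change of 0.12. Scg2 encodes secretogranin II, a granin that helps to form dense-core granules. Its level was 36038 to 51541 CPM (median 44909) in high-Hcrt cells and 20867 to 40671 CPM (median 28571) in low-Hcrt cells. The ranges overlapped between plates, but within a plate Scg2 was higher in high-Hcrt cells on 19 of 19 plates. Its log2 fold change was 0.58 ± 0.04 (SE), a 1.496-fold rise (adjusted p = 1.01e-09). Scg2 lies at chr1:79434669-79440120 on the minus strand.

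Vgf encodes a granin-like precursor of several peptides. Its level ran from 446 to 1394 CPM (median 949) in high-Hcrt cells and from 317 to 932 CPM (median 676) in low-Hcrt cells. These ranges overlapped widely, and 18 of 19 plates had more in high-Hcrt cells (log2 0.40 ± 0.06, adjusted p = 1.35e-05). Ptprn, the granule membrane protein IA-2, went from 709 to 1288 CPM (median 1042) in low-Hcrt cells to 1021 to 1497 CPM (median 1229) in high-Hcrt cells (log2 0.24 ± 0.04, adjusted p = 0.000205, higher on 18 of 19 plates). Nnat, the small ER protein neuronatin, rose by 17.2% (adjusted p = 0.000545), and it lies inside the gene Blcap on the other strand. Chga (chromogranin A) and Scg3 (secretogranin III) rose by log2 0.18 ± 0.05 and 0.22 ± 0.06, each on 15 of 19 plates (adjusted p = 0.0289 and 0.0326). Chgb, Scg5, Resp18 and Pcsk1n had log2 values between 0.05 and 0.10 and did not pass. The member that fell was Sv2a, a protein of synaptic vesicles, at 427 against 520 CPM (log2 -0.29 ± 0.06, adjusted p = 0.00155).

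Prohormone processing was led by Pcsk1, the convertase PC1/3 that makes the first cuts in many precursors (chr13:75089826-75134861, plus strand). It had 523 to 861 CPM (median 767) in high-Hcrt cells and 413 to 704 CPM (median 562) in low-Hcrt cells. High-Hcrt cells were above their own plate's low-Hcrt cells on 18 of 19 plates, with a log2 fold change of 0.42 ± 0.05 (adjusted p = 1.19e-06). Pam, which amidates the ends of peptides, orexins among them, was at 375 to 1016 CPM (median 594) against 186 to 786 CPM (median 533) and rose by log2 0.23 ± 0.06 (adjusted p = 0.0204). The second convertase, Pcsk2, stood at 184 ± 32.1 CPM in high-Hcrt and 196 ± 54.1 CPM in low-Hcrt cells (adjusted p = 0.782). Carboxypeptidase E, Cpe, stood at 833 ± 146 and 786 ± 196 CPM (adjusted p = 0.431). Of 16 processing genes listed, 10 were tested, 2 rose and none fell, beside 1.05% and 1.45% of all genes. With cells ranked within clusters none of the 10 was called, and Pam stood at log2 0.13 (adjusted p = 0.39).

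**Figure D3:**
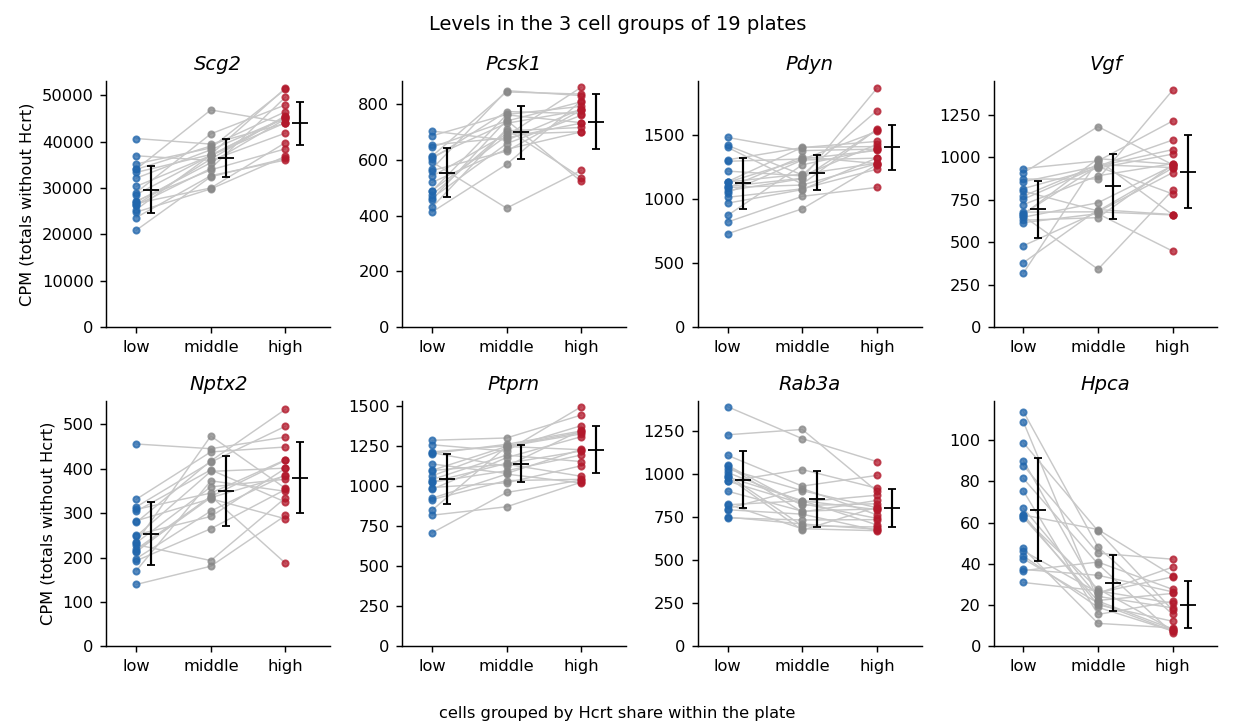
CPM on totals without Hcrt (y axis, from 0) of 8 genes in low-Hcrt, middle and high-Hcrt cells (x axis); points are 19 plates, grey lines join a plate, and black marks give the mean and SD. Scg2 rises on all 19 plates and Hpca and Rab3a fall on all 19, while the ranges of the groups overlap for most genes.

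The start regions of Hcrt and of 3 genes that rose with it are shown because the data bear on genes that moved together, and a cyclic-AMP response element is a well-known motif of genes regulated by neuronal activity. Each is the 250 bases before the RefSeq transcript start (GRCm38.p6), 5′ to 3′ on the strand of the gene, and capitals mark the motif TGACGTCA. The motif was chosen after the genes that rose were known, and both strands read the same because it is a palindrome. It shares no full match with the AP-1 motif TGANTCA, which was also searched on both strands and found in none of the 4.
Hcrt, chr11:100762932-100763181, minus strand: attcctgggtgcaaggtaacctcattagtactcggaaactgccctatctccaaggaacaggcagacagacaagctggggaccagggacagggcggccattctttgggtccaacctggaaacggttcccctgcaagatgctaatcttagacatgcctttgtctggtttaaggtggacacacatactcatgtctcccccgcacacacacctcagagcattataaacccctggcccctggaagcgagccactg
Scg2, chr1:79440027-79440276, minus strand: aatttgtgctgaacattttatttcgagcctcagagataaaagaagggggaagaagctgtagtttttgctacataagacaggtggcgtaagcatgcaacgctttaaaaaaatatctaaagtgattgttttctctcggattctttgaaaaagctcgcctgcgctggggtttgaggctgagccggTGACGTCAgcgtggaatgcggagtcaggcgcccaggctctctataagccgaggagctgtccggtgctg
Pcsk1, chr13:75089607-75089856, plus strand: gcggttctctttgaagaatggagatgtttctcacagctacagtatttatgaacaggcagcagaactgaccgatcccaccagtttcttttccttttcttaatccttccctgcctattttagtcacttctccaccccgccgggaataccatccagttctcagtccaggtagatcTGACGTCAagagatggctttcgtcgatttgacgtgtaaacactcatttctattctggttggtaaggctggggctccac
Pdyn, chr2:129699939-129700188, minus strand: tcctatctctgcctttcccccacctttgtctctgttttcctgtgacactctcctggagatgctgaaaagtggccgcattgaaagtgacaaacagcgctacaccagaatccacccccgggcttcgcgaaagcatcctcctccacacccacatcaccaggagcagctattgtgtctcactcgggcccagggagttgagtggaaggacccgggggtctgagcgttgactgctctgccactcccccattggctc

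Scg2 and Pcsk1 held TGACGTCA, 68 and 78 bases before the start, and the windows of Hcrt and Pdyn did not. The letters were in 1.60% of 27025 RefSeq start regions of this length and in 3.39% of those of the 5729 tested genes that could be matched. Of the 77 genes that rose, 58 were matched and 6 held it (10.3%): Scg2, Pcsk1, Ell2, Rps9, Rpl13 and Tmem59l. Of the genes that fell, 85 were matched and 3 held it (3.53%): Emc10, Ldha and Ndufa10. The AP-1 motif was in 6.90% of the matched genes that rose and 4.706% of those that fell. It was in 3.404% of all tested genes that were matched and in 6.853% of the 27025 start regions. For TATAAA the shares were, in the same order, 10.3%, 8.235%, 5.69% and 12.98%. The windows of Ptprn and Fos, which also rose, were read too and did not hold TGACGTCA. A match is a description of letters and not of a bound site, and no test was made.

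Among peptide genes, 9 of 30 were tested, Pdyn and Vgf rose and none fell, beside 1.05% and 1.45% of all genes. Pdyn had 1091 to 1866 CPM (median 1391) in high-Hcrt cells and 729 to 1482 CPM (median 1099) in low-Hcrt cells. It was higher on 18 of 19 plates, by log2 0.33 ± 0.05 (adjusted p = 6.64e-06). With cells ranked by Hcrt over ERCC counts the value for Pdyn was -0.031. Galanin, Gal, stood at 131 and 100.7 CPM (adjusted p = 0.0703). Pth2, a peptide of the parathyroid hormone family, stood at 34.8 and 13.4 CPM and was above on 16 of 19 plates without passing (log2 1.48 ± 0.44, adjusted p = 0.0864). Pmch itself was at 0 to 956 CPM (median 225) in high-Hcrt and 0 to 14171 CPM (median 201) in low-Hcrt cells, a spread carried by 1 plate (adjusted p = 0.851).

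Genes switched on by neuronal activity included several of those that rose. Of 13 later activity-regulated genes tested, 5 rose (Scg2, Nptx2, Pcsk1, Vgf and Rgs2) and none fell, beside 1.05% and 1.45% of all genes, with a median log2 value of 0.26. With cells ranked within clusters 3 rose, and the median was 0.10. Scg2, Vgf and Pcsk1 are also granule or processing genes, so the lists are not independent. Nptx2, a secreted pentraxin that gathers glutamate receptors at synapses, had 187 to 534 CPM (median 384) in high-Hcrt and 140 to 456 CPM (median 234) in low-Hcrt cells. It was higher on 18 of 19 plates (log2 0.59 ± 0.07, adjusted p = 6.96e-07). Rgs2, a regulator of G-protein signalling, stood at 542 against 457 CPM (log2 0.26 ± 0.07, adjusted p = 0.0246). Bdnf, the neurotrophic factor, stood at 150 and 177 CPM (adjusted p = 0.64).

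Of 11 immediate early genes tested, Fos alone rose and none fell, beside 1.05% and 1.45% of all genes. It had 344 to 1009 CPM (median 503) in high-Hcrt cells and 244 to 718 CPM (median 343) in low-Hcrt cells, and was higher on 16 of 19 plates (log2 0.58 ± 0.15, adjusted p = 0.0371). Leaving out single plates ended this call in 10 of 19 cases. Fosl2, another AP-1 subunit, stood at 78.5 and 54.1 CPM (adjusted p = 0.0604), and Fosl1, Junb, Nr4a3, Nr4a1 and Egr1 had log2 values from 0.14 to 0.49 without passing. Jun, Fosb, Ier2 and Dusp1 had values from -0.09 to 0.03. In all, 8 of the 11 were above 0, against 39.1% of all genes tested, with a median of 0.27. With cells ranked within clusters 5 of 9 were above 0, with a median of 0.05. None of 11 tested genes of heat shock and dissociation passed.

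Genes of the ER and of transport from it moved in small numbers. Manf, an ER-resident factor induced by ER stress, rose by log2 0.30 ± 0.06 on 18 of 19 plates (adjusted p = 0.00378), as the only one of 26 ER chaperones and folding genes tested to pass. Creb3l1, an ER-anchored transcription factor, rose by log2 0.48 ± 0.13 (adjusted p = 0.0361) as 1 of 16 genes of the unfolded protein response and ER degradation. Among 29 genes of ER translocation, Sec61b, a subunit of the channel through which precursors enter, had 151 to 275 CPM (median 178) in high-Hcrt and 77.0 to 294 CPM (median 157) in low-Hcrt cells (adjusted p = 0.0088). Krtcap2, of the complex that adds sugars, rose by log2 0.29 ± 0.08 (adjusted p = 0.0277), and Ssr2, a subunit of a complex beside the channel, fell by 0.32 ± 0.07 on the log2 scale (adjusted p = 0.0088). Of 36 genes of ER to Golgi transport, Surf4 and Lman1, both cargo receptors, and Tmed3 rose (adjusted p from 0.0194 to 0.0462). Beside the calls in these lists, 1.05% of all genes tested rose and 1.45% fell. The list medians lay between 0.02 and 0.06, where that of all genes was -0.05. Values above 0 were found in 21 of 29 translocation genes and 15 of 26 chaperone and folding genes. They were found in 11 of 16 unfolded protein and degradation genes and 20 of 36 transport genes, against 39.1% of all genes tested. With cells ranked within clusters these counts were 16 of 29, 18 of 26, 6 of 16 and 20 of 35. With cells ranked within clusters, Sec61b was called again (adjusted p = 0.0259) and no other gene of these lists was. There Manf stood at log2 0.12 (adjusted p = 0.608), Krtcap2 at 0.22 (adjusted p = 0.232) and Ssr2 at -0.27 (adjusted p = 0.0915). The Krtcap2 call was also lost in 6 of the 19 fits that left out a plate.

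Ribosomal protein genes were shifted as a body. All 79 were tested, 16 rose (beside 1.05% of all genes), none fell and 78 had a log2 value above 0, against 39.1% of all genes tested. Their values ran from -0.02 to 0.31, with a median of 0.15. Rplp0, of the ribosomal stalk, had 666 to 1024 CPM (median 784) in high-Hcrt and 508 to 968 CPM (median 644) in low-Hcrt cells (log2 0.25 ± 0.05, adjusted p = 0.00134). Rpl10 rose by 23.7% and Rps14 by 19.98%. Eef1a1, which carries transfer RNA to the ribosome, rose by 13.9% (adjusted p = 0.00117), and 2 of 28 translation factors tested rose, Eif1 being the other. These genes have many processed copies in the genome, and how reads matching several copies were counted is not given in the sources used here, so their values are uncertain.

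Of 75 tested nuclear genes of the respiratory chain, none rose and 3 fell, beside 1.05% and 1.45% of all genes. The 3 were Cyc1, a subunit of complex III (log2 -0.25 ± 0.05, lower on 19 of 19 plates, adjusted p = 0.00378), Atp5c1 of the ATP synthase and Ndufa10 of complex I. The median of the 75 was -0.01. With TMM factors 1 was higher and 1 lower, with cells ranked within clusters none was called, and Atp5c1 was lost under TMM (log2 -0.13, adjusted p = 0.159). The 9 transcripts of the mitochondrial genome that were tested lay between -0.18 and -0.03, and none passed. Malat1, an abundant RNA kept in the nucleus, rose from 18630 ± 3018 to 21266 ± 3317 CPM (log2 0.19 ± 0.03, adjusted p = 0.000132).

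**Figure D4:**
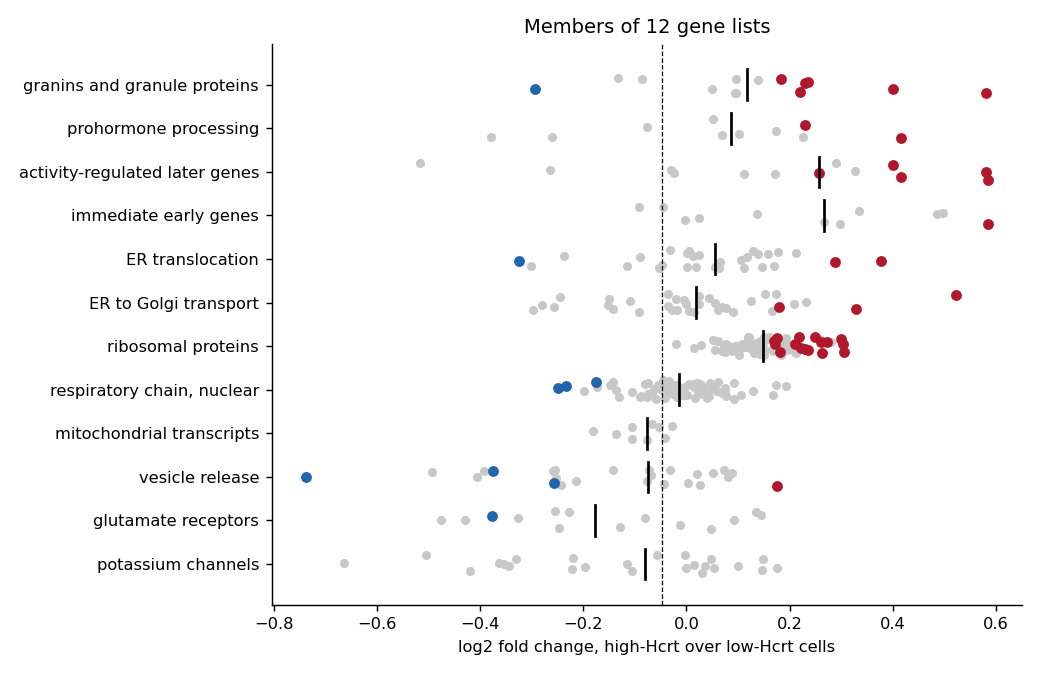
Log2 fold change of high-Hcrt over low-Hcrt cells (x axis) for the tested members of 12 lists (y axis); red and blue points passed the threshold upward and downward, black bars are list medians and the dashed line is the median of all genes. The 79 ribosomal protein genes form a narrow band with a median of 0.15, while granule genes reach 0.58.

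Among all genes that rose, the largest fold changes of genes with at least 20 CPM and 1 direction on at least 80% of plates were in Msn, Shisa6 and Rnf183. The Rnf183 call (adjusted p = 0.0465) was lost in 14 of the 19 fits that left out a plate and with cells ranked within clusters (adjusted p = 0.27). Msn (moesin, which links membranes to actin) had 21.5 to 95.3 CPM (median 66.8) in high-Hcrt and 0 to 69.8 CPM (median 32.4) in low-Hcrt cells (log2 0.97 ± 0.20, adjusted p = 0.00334). Shisa6, an auxiliary protein of AMPA receptors, had 15.5 to 93.5 CPM (median 56.0) and 11.3 to 54.8 CPM (median 28.9), a log2 value of 0.81 ± 0.16 (adjusted p = 0.00135). In the ranking by Hcrt over ERCC counts Shisa6 turned to -0.67. Zfp386, Rasa4, Mllt3 and B2m also rose, by 1.40 to 1.59 times. With cells ranked within clusters Rasa4 kept its call (log2 0.53, adjusted p = 0.0245). Zfp386 stood there at 0.19 (adjusted p = 0.816), Mllt3 at 0.21 (adjusted p = 0.667) and B2m at 0.12 (adjusted p = 0.78). Fits that left out a plate lost the call of Mllt3 in 10 of 19 cases, of Zfp386 in 4 and of Rasa4 in 3. Of 17 tested receptors known from orexin neurons, 2 rose and none fell, beside 1.05% and 1.45% of all genes, and none was called with cells ranked within clusters. Crhr2, a receptor of the corticotropin-releasing factor family, went from 42.1 ± 14.9 to 65.4 ± 22.5 CPM (adjusted p = 0.00596; 0.0633 within clusters and 0.138 at equal depth), and Adra2a, the inhibitory adrenergic receptor, from 44.3 to 63.3 CPM (adjusted p = 0.0285).

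The largest falls were in Hpca and Gad1. Hpca encodes hippocalcin, a neuronal calcium sensor (chr4:129111570-129122036, minus strand). It had 6.41 to 42.2 CPM (median 18.7) in high-Hcrt cells and 31.0 to 113.7 CPM (median 63.7) in low-Hcrt cells, lower on 19 of 19 plates. The log2 fold change was -1.62 ± 0.18 (adjusted p = 5.06e-08), from 305 UMIs in all high-Hcrt and 994 in all low-Hcrt cells. A sum over cells does not tell fewer cells with a gene from less of its RNA per cell. Hpcal1, a near relative, fell by 1.01 ± 0.19 on the log2 scale (lower on 18 of 19 plates, adjusted p = 0.00117). Ncald, of the same family, rose by 11.3% (adjusted p = 0.016). With cells ranked within clusters the Ncald call was lost (log2 0.07, adjusted p = 0.589). Calb1, the calcium buffer calbindin, rose by log2 0.18 ± 0.05 (adjusted p = 0.0311). Of 13 calcium-binding genes tested, 2 rose and 2 fell, beside 1.05% and 1.45% of all genes.

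Gad1, which makes GABA, had 1.26 to 29.1 CPM (median 9.19) in high-Hcrt and 7.29 to 141 CPM (median 47.3) in low-Hcrt cells (log2 -1.61 ± 0.26, lower on 17 of 19 plates, adjusted p = 0.000105). Its partner Gad2 stood at 16.04 and 40.9 CPM (adjusted p = 0.19). At equal depth 9.44% ± 8.498 of high-Hcrt and 21.95% ± 14.2 of low-Hcrt cells had a Gad2 UMI (permutation p = 0.00258, adjusted p = 0.00903). A UMI of the vesicular GABA transporter Slc32a1 was found in 0.263% and 1.73% of cells (permutation p = 0.128). Slc17a6, the glutamate transporter, had 62.5 to 195 CPM (median 140) in high-Hcrt and 79.4 to 269 CPM (median 161) in low-Hcrt cells, which did not pass in the sums (log2 -0.27 ± 0.12, adjusted p = 0.255). The share of cells with a Slc17a6 UMI at equal depth was 73.6% ± 12.6 against 85.1% ± 8.546 (permutation p = 0.00857, adjusted p = 0.02), lower in high-Hcrt cells on 14 of 19 plates.

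Of 26 vesicle release genes tested, Rab3a, Cplx1 and Syt1 fell and Syt4 rose, beside 1.45% and 1.05% of all genes. With each cell given equal weight in limma, 1 of the 26 was called higher and none lower, and with cells ranked within clusters none was higher and 1 lower. Rab3a, the small GTPase of synaptic vesicles, had 673 to 1075 CPM (median 800.0) in high-Hcrt and 747 to 1394 CPM (median 985) in low-Hcrt cells. It was lower on 19 of 19 plates, by 0.26 ± 0.04 on the log2 scale (adjusted p = 0.000105). Cplx1, a complexin that clamps fusion, went from 95.6 ± 37.3 CPM in low-Hcrt to 55.6 ± 18.6 CPM in high-Hcrt cells (adjusted p = 0.00054). Syt1, the calcium sensor of fast release, fell by 22.9% (adjusted p = 0.00153), and Syt4, a synaptotagmin found on dense-core granules, rose by log2 0.17 ± 0.05 (adjusted p = 0.028). Gria2, an AMPA receptor subunit, fell by 23.0% (adjusted p = 0.00427), as the one call among 14 glutamate receptor genes tested. The Gria2 call was lost with cells ranked within clusters (log2 -0.19, adjusted p = 0.319) and with each cell given equal weight in limma. Nefl, a neurofilament subunit, fell by 1.24 ± 0.29 on the log2 scale (adjusted p = 0.0194).

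Other genes with large falls were Cd36, a fatty acid transporter, Cda, a cytidine deaminase, Glipr1, Cdk5r1, Igsf21, Mfsd4a, Slc1a1 (a neuronal glutamate transporter) and Gpc3. Their log2 values ran from -1.43 to -0.84, and all but Cda had mean levels of 10.5 to 32.1 CPM in both groups. With cells ranked within clusters Igsf21 stood at -0.48 (adjusted p = 0.477) and Slc1a1 at -0.48 (adjusted p = 0.491). Mfsd4a could not be tested there, and Cd36, Cda, Glipr1 and Cdk5r1 kept their calls. The Slc1a1 call was also lost in 4 of the 19 fits that left out a plate. Cda went from 15.8 to 80.8 CPM (median 36.3) in low-Hcrt to 1.88 to 23.0 CPM (median 16.7) in high-Hcrt cells (adjusted p = 4.7e-05). Gpc3 is 1 of 8 genes listed for subtypes of Hcrt neurons, 6 of which were tested. It was the only one to pass, at 16.2 against 30.5 CPM (adjusted p = 0.0166), where 2.50% of all genes passed. Gpc3 is also a leading gene of one of the 7 clusters of cells (cluster 2), and with cells ranked within clusters its log2 value was -0.35 (adjusted p = 0.724).

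Several lists gave no call. The identity factors of orexin neurons had 6 of 28 genes tested and none past the threshold. Lhx9 stood at 175 ± 34.8 CPM in high-Hcrt and 171 ± 30.5 CPM in low-Hcrt cells (log2 0.03 ± 0.08, adjusted p = 0.905). Rfx4 stood at 216 ± 63.3 and 176 ± 31.2 CPM (adjusted p = 0.101). Of genes reported to regulate Hcrt transcription, 6 of 14 were tested, and none passed. Igfbp3 was among them, at 118 ± 32.1 and 108.3 ± 38.8 CPM (adjusted p = 0.552). Potassium channels (24 tested), sodium, calcium, HCN and TRP channels (28), GABA and glycine receptors (9), clock genes (9) and insulin-like growth factor genes (5) had no call, where 2.50% of all genes had one. The orexin receptor Hcrtr2 was too low to test, with 45 UMIs in high-Hcrt and 82 in low-Hcrt cells.

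The middle cells, which the comparison of high-Hcrt and low-Hcrt cells did not use, were read in a second fit of all 3 groups on 8378 genes. Middle minus low-Hcrt cells gave 33 calls (0.394%), 16 higher (0.191%) and 17 lower (0.203%), and high-Hcrt minus middle cells 2 calls (0.0239%), Scg2 and Pdyn, both higher. For 175 of the 184 genes called between the outer groups, the mean CPM of the middle cells lay between the other means. These genes were chosen for outer means that lie apart, which by itself favours a middle mean between them. The share over all genes was not worked out, so this count is a description. Scg2 rose in both steps, by log2 0.31 (adjusted p = 3.53e-05) and 0.27 (adjusted p = 0.000897). Pdyn had 0.12 (adjusted p = 0.376) and 0.22 (adjusted p = 0.0348). Pcsk1 had 0.34 (adjusted p = 0.000113) and 0.08 (adjusted p = 0.926), Nptx2 0.46 (adjusted p = 6.53e-05) and 0.13 (adjusted p = 0.886), and Hpca -1.08 (adjusted p = 3.53e-05) and -0.55 (adjusted p = 0.581). Whether the steps of a gene differ from each other was not tested. Each step shares the middle cells with the other.

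High-Hcrt and low-Hcrt cells were spread unevenly over clusters of cells. Clustering of the 1066 cells without Hcrt gave 7 clusters, which are described by their leading genes and carry no test. Cluster 1 (Cpne3, Sema3e and Shisa6) held 30.6% of high-Hcrt and 9.80% of low-Hcrt cells, and more of the high-Hcrt cells on 17 of 19 plates. Cluster 3 (Crhbp, Th and Pth2) held 25.4% and 6.92%. Low-Hcrt cells were more common in cluster 2 (Gpr50, Met and Gpc3), with 31.1% of them against 11.5% of high-Hcrt cells. The shares of high-Hcrt and low-Hcrt cells were 16.1% and 25.1% in cluster 0 (Igsf21, Cpne6 and Cxcl14), 1.44% and 12.7% in cluster 5 (Cartpt, Pmch, Tac2 and Gad1) and 14.99% and 12.97% in cluster 4 (Nts and Cbln2). The 10 cells of cluster 6, led by oligodendrocyte genes such as Mobp, were 5 low-Hcrt and 5 middle cells. Genes that differ between the groups took part in the clustering, so these sizes are not independent of the gene results.

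Cells were therefore also ranked within plate and cluster. This gave 51 calls among 7061 genes (0.722%), 21 higher (0.297%) and 30 lower (0.425%) in high-Hcrt cells. Of the 184 genes called before, 181 could be tested, 181 kept their direction and 37 were called again, with log2 values at a median of 0.71 of the first ones. The same cells were ranked again by the same Hcrt share, so a kept direction is no independent check. Scg2 kept a log2 fold change of 0.43 (adjusted p = 4.49e-13), Nptx2 0.38 (adjusted p = 0.00826), Pdyn 0.26 (adjusted p = 0.000771), Vgf 0.24 (adjusted p = 0.0357) and Ptprn 0.16 (adjusted p = 0.042). Hpca stayed at -1.06 (adjusted p = 0.000326) and Rab3a at -0.23 (adjusted p = 0.00432). Pcsk1 went to 0.15 (adjusted p = 0.37), Fos to 0.49 (adjusted p = 0.0875), Gad1 to -0.93 (adjusted p = 0.145) and Syt1 to -0.18 (adjusted p = 0.412). Of the 79 ribosomal protein genes, 2 rose and 75 were above 0, with a median of 0.14. Rplp0 went to 0.07 (adjusted p = 0.722).

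In each of clusters 0 to 5 taken alone, the summed Scg2 level of high-Hcrt cells was 1.128 to 1.697 times that of low-Hcrt cells. The ratio of Nptx2 ran from 1.189 to 1.658, of Vgf from 1.116 to 1.597, of Pcsk1 from 1.02 to 1.431 and of Ptprn from 1.054 to 1.236. Pdyn was above 1 in 5 of 6 clusters (0.924 to 1.817) and Rplp0 in 4 of 6 (0.943 to 1.149). Hpca ran from 0.249 to 0.576 and Rab3a from 0.813 to 0.913. These ratios rest on 16 to 66 cells per group and cluster and have no replicate check.

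**Figure D5:**
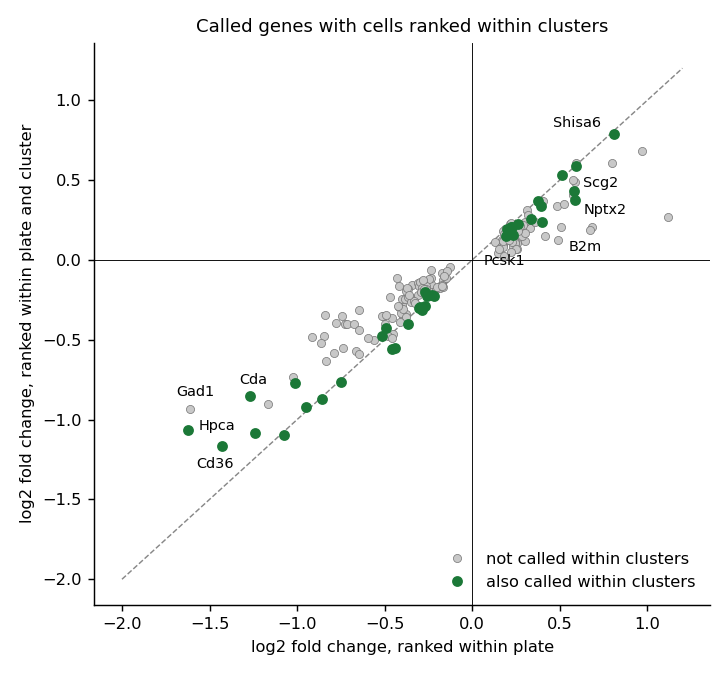
Log2 fold change of called genes with cells ranked within plate (x axis) and within plate and cluster (y axis); green points were called in both, and the dashed line marks equal values. All 181 genes kept their sign, and most lie nearer to 0 within clusters. Both rankings drew on the same cells, so the axes are not independent.

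Over single cells within a plate, the genes whose share of UMIs other than Hcrt moved most like the Hcrt share were Scg2, Itm2b, Nptx2, Pcsk1 and Pdyn. Their mean Spearman correlations over 19 plates were 0.52, 0.31, 0.28, 0.26 and 0.24. For Scg2 the plates ran from 0.20 to 0.70. Itm2b, a membrane protein of neurons, was also called between the groups, at 4742 ± 368 against 4028 ± 545 CPM (adjusted p = 5.8e-06). The genes least like Hcrt were Hpca (-0.30), Rab3a (-0.22), Gad1 (-0.22), Cda (-0.21) and Gria2 (-0.19). Cells of a plate share a library and its depth, and the same cells made the group comparison, so these values are a description.

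Named genes that overlap another gene on the opposite strand include Gad1, B2m, Rab3a, Hpca, Msn, Shisa6, Ptprn, Ssr2 and Krtcap2. The use of strand in the counting is not given in the sources used here, so reads of the partner cannot be told apart.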

How the data were processed

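The authors deposited counts as whole numbers for each gene in each well, with a second table of well labels, plates and ERCC percentages. The submitters' processing notes name STARsolo 2.7.5c and STAR 2.7.5c, run on GRCm38, beside cutadapt 2.1.0, bcl2fastq 2.20, R 3.4.3 and Seurat 2.3.4. The annotation release, strand setting and collapsing of UMIs are not given in the sources used here, and counts are called UMIs because read 1 carries one. Coordinates are those of GENCODE M21, which held 99.6% of the gene identifiers. A plate's gated cells summed to 1520383 to 4824365 UMIs (median 2764970), and 4 sets of 96 barcodes were each used on 4 or 5 plates.

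Counts of the cells of each group were summed per plate and tested with edgeR 4.0.16 (filterByExpr, robust quasi-likelihood fit, library size without Hcrt, no further factor, plate as block, prior count 2). The p-values were adjusted by Benjamini and Hochberg's method across every tested gene, and 0.05 was the threshold. The SE was obtained from the F statistic as the absolute log2 fold change over the root of F. On simulated counts with these plates and 7362 genes, the test recovered 63% of genes changed 1.5-fold and 85% of those changed 2-fold, and called 6 unchanged genes. Plate medians and summed marker lists were compared by 100000 two-sided sign flips over plates, adjusted over 14 measures. The block stands because both groups of a plate come from that plate. Replicate numbers follow accession order. Clusters were made with scanpy 1.11.5 and leidenalg 0.10.2 (2000 variable genes without Hcrt, 30 components, 30 neighbours, resolution 1). Wells were filled by hand, and doublets were not called.

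The cells, gene lists and tests were chosen with earlier results of these data known. Named genes had an adjusted p under 0.05, at least 20 CPM in the higher group and 1 direction in at least 80% of plates, without predicted, mitochondrial or pseudogene symbols. The 12 largest changes per direction were named, as were at most 4 members from each list, 14 genes of interest whatever the test gave, and the 5 genes most and least like Hcrt. Members named outside this rule were chosen after their values were seen. Alternatives were TMM, DESeq2 1.42.0, limma 3.58.1 with each cell equal, no filter, no block, leaving out plates, other gates, splits, rankings and depths, and totals without mitochondrial genes. Totals without Scg2, cells without clusters 5 and 6, and plates of at least 50 cells were added after seeing the data.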

Additional observations from a re-analysis of the deposited data

Results flagged for a closer look

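One well labelled Empty, on replicate 15, held 100707 mouse UMIs and 5682 genes, a signal in a well used in no comparison. Other wells without a cell had a median of 169 UMIs and at most 1022. Its Hcrt share was 0.158%, under the 1% that chose the cells compared here. What the well received was not tested.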

How the results depend on the processing

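Both groups come from the same plates, and without the replicate block 9 genes rose and 30 fell, where the blocked fit had 77 rises among 184 calls. TMM factors gave 138 and 68, DESeq2 gave 170 genes that rose, and limma with each cell equal gave 57 that fell. Ranking cells by Hcrt over ERCC counts gave 495 and 636, and ranking within clusters 21 and 30; the cause was not tested. Leaving out each plate gave 49 to 99 genes that rose and 71 to 153 that fell. Only without replicate 7 were the counts (49 and 71) under the range of 1.5 times, and the highest came without replicate 15. With the group as a number (1, 2, 3), 246 genes were called, against 34 in either step. The other alternatives kept both counts within 1.5 times. Of 48 named genes that passed, 5 kept their call wherever they could be tested: Scg2, Nptx2 and Hpca in 38 settings, Cda and Cdk5r1 in 37. Ranking by Hcrt over ERCC turned the direction of 8 named genes: Shisa6 (-0.67), Crhr2 (-0.0044), Rasa4 (-0.45), Mllt3 (-0.058), Pdyn (-0.031), Eif1 (-0.012), Igfbp3 (-0.36, not called in the main comparison) and Glipr1 (0.73). Ribosomal protein genes gave 33 rises of 79 with TMM and 39 with DESeq2. They gave fewer with thinned cells (11 of 78), limma with each cell equal (3 of 79) and ranking within clusters (2 of 79). At 9000 UMIs per cell, the difference in genes was -61.45 (permutation p = 0.00037). Genes under the expression filter, Hcrtr2 among them, could not be compared at this depth.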

Other observations

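Of the 30 peptide genes listed, 21 were under the expression filter and could not be tested, and their summed UMIs are given as counts. Qrfp, the gene of the feeding peptide 26RFa, had 53 UMIs in high-Hcrt and 384 in low-Hcrt cells. It was lower in high-Hcrt cells on 12 plates and higher on 6, and 1 plate held 100 of the low-Hcrt UMIs. Tac1, which encodes substance P, had 13 and 234 UMIs, lower on 12 plates and higher on 2. Adcyap1, which encodes the peptide PACAP, went the other way with 42 and 18 UMIs, higher on 11 plates and lower on 3. These 3 genes were chosen after their values were seen, and no test was made.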
